A study of Mus musculus with 30 samples.

Results

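The genes described here are 38 members of the interferon response and of antigen processing chosen by symbol and covering RNA and DNA sensors, Stat and Irf transcription factors, antiviral interferon-stimulated genes and the peptide-loading genes of MHC class I. All 38 were matched to 1 gene identifier each, of 55401 identifiers in each deposited table. Their RNA was measured in 30 mouse libraries, 2 in each of 15 groups, during reprogramming of mouse embryonic fibroblasts (MEFs) to induced pluripotent stem cells (iPSCs). In the 4-factor arm, MEFs of genotype 129XOG2 were the day 0 sample. Cells infected with lentivirus for Oct4, Sox2, Klf4 and c-Myc, replated and then kept in a serum and serum-replacement medium with doxycycline (2 µg/ml) were taken on days 2, 4 and 7. In the chemical arm, CF1 MEFs were the day 0 sample and cells in a small-molecule reprogramming medium were taken on days 4, 8 and 12. Both arms ended in iPSCs grown on feeder cells in a medium with LIF, CHIR99021 (a GSK3 inhibitor) and PD0325901 (a MEK inhibitor). In the removal experiment, OG2 MEFs of genotype 129XOG2 went through chemical reprogramming and 1 molecule was withdrawn from day 8 to day 12: CHIR, PD, VC or WS. The fifth group there, CT, was taken as the one with nothing withdrawn as the other titles carry a minus sign before a molecule; CT, VC and WS are not expanded in the labels. The labels do not say that the 2 libraries of a group came from separate cultures, so the p-values measure the spread between those libraries, which may be technical.

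Cells recognise viral RNA or DNA with sensors such as Ddx58 (RIG-I) and Ifih1 (MDA5), which switch on the genes for interferons. Secreted interferon binds receptors whose Janus kinases phosphorylate Stat proteins, Stat2 among them; with Irf9 these form a complex that binds the interferon-stimulated response element (ISRE) in promoters and raises transcription of many antiviral genes. Many of these genes also keep a low level of expression in resting fibroblasts, and pluripotent cells are known for a weak response to interferon. Antigen processing is a second output of the pathway: the immunoproteasome subunits Psmb8 and Psmb9 cut proteins to peptides, Tap1 carries them into the endoplasmic reticulum, and B2m is the light chain that MHC class I molecules need to reach the cell surface.

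Promoters of 28 members are in the RefSeq table used here (GRCm38.p6, 250 bases before to 50 after each start), and 13 of these 28 genes, 46.4%, hold the ISRE core GAAANNGAAA on either strand, against 3.99% of all 27025 genes in the table. Counted by window, it was 13 of 31 member windows (41.9%) against 3.44% of 32851. The genes with the ISRE core were B2m, Bst2, Ddx58, Ifih1, Ifit1, Ifit3, Ifitm2, Ifitm3, Isg15, Oas1a, Oas3, Rsad2 and Stat2. The 250 bases before the start are printed for 6 members, 5′ to 3′ on the strand of the gene, because these 6 genes show the different courses described further on; capitals mark the ISRE core or its complement, and adjoining capitals are overlapping matches. Isg15 lies at chr4:156200819-156201068 (minus strand), Ifit1 at chr19:34640639-34640888 (plus strand), Ifit3 at chr19:34583279-34583528 (plus strand), Ifit2 at chr19:34550444-34550693 (plus strand), Oas1a at chr5:120907526-120907775 (minus strand) and B2m at chr2:122147437-122147686 (plus strand). 
Isg15: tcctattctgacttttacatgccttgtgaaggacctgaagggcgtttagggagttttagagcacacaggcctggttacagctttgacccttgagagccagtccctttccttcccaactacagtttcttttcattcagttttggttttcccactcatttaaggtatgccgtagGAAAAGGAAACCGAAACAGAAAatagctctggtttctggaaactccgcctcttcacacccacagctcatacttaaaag
Ifit1: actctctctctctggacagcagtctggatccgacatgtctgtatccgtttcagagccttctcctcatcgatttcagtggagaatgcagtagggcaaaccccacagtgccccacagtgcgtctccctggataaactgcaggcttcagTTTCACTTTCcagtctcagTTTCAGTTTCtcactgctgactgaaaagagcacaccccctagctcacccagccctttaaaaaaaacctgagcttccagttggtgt
Ifit3: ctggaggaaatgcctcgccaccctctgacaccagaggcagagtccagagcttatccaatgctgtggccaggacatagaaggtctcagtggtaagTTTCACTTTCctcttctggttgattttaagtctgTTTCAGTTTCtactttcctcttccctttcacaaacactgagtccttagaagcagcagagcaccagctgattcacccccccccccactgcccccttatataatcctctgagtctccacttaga
Ifit2: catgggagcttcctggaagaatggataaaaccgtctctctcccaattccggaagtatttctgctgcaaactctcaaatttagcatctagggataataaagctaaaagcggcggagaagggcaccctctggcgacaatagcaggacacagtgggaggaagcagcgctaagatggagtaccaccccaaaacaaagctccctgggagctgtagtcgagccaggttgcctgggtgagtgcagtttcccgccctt
Oas1a: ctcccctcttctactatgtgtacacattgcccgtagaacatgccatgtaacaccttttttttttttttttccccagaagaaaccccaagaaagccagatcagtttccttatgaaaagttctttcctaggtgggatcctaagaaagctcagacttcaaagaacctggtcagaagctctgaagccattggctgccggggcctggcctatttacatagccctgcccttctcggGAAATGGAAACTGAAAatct
B2m: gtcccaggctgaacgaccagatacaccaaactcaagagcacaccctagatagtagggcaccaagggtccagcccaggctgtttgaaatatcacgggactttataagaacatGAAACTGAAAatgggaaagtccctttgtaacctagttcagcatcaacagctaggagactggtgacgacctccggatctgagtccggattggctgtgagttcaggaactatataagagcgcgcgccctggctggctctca
Ifit1, Ifit2 and Ifit3 sit next to each other on the plus strand of chromosome 19, with 7111 bp between Ifit2 and Ifit3 and 52139 bp between Ifit3 and Ifit1. The ISRE core occurs in the windows of Ifit1 and Ifit3 and not in those of Ifit2, which says only that these letters are absent from the windows searched.

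Values are FPKM, read fragments relative to transcript length and sequencing depth, as the authors deposited them. They were tested with limma on log2(FPKM + 1), on which folds of genes near 0 come out too small; a gene was called at an adjusted p under 0.05 and a change of at least 2-fold, with "rose" and "fell" kept for such genes. Each share of all genes given below is the share called by this rule, also where it follows a count at an unadjusted p. No share of all genes at an unadjusted p was worked out. Depth, estimated from the steps between the lowest values, was 34600000 to 40100000 fragments per library, and 2 libraries of a group correlated at 0.9715 to 0.9961 across genes. The least alike pair was day 4 of the 4-factor arm, in which 556 genes differed more than 2-fold between the libraries, the members Mx2 and Ifitm2 among them. RNA of bulk samples does not tell fewer cells of a type from less RNA per cell. A list of 15 macrophage markers, among them Adgre1, Csf1r and C1qa, is given here because these cells carry a high interferon response: its summed FPKM was 285 to 305 in CF1 MEFs and 31.8 to 35.5 in 129XOG2 MEFs, with 0 of 15 genes at 0 in either. It was 13.5 to 13.6 on day 4 of the chemical arm and 13.5 to 13.7 on day 2 of the 4-factor arm. Of 10 fibroblast markers, the level in iPSCs was 0.148% to 1.82% of day 0 in the 4-factor arm (median 0.807%) and 2.14% to 43.7% in the chemical arm (median 5.23%), and all 8 pluripotency markers rose in both.

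Across the 15 groups most members were highest late in chemical reprogramming and lowest early in it. Day 12 of the chemical arm had the highest mean FPKM for 16 of 38 members and chemical iPSCs for 11, followed by day 7 of the 4-factor arm and the removal of WS with 4 each. Day 4 of the chemical arm had the lowest mean for 22 members, and day 2 and the iPSCs of the 4-factor arm for 6 each. These ranks set levels from 3 separately made tables side by side and carry no test.

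**Figure D1:**
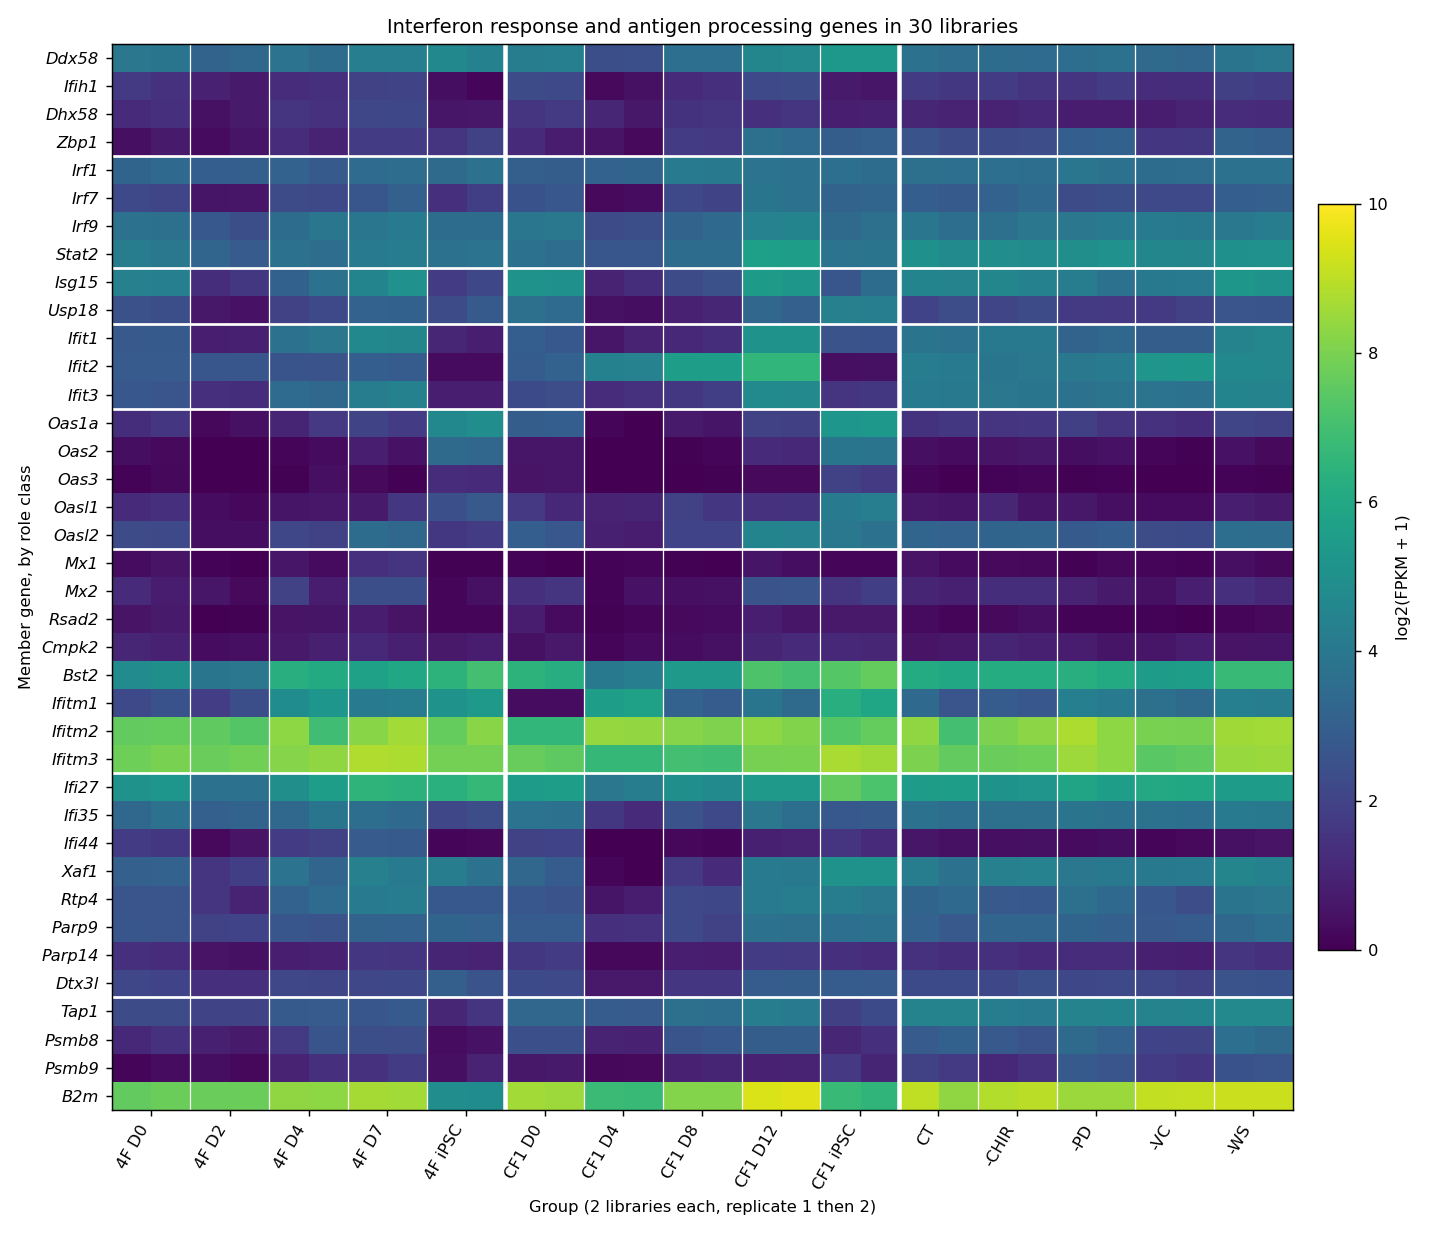
Level of each of the 38 members (rows, by role) in each of the 30 libraries (columns, 2 to a group) as log2(FPKM + 1), from dark (0) to yellow (10). Most rows are darkest on day 4 of the chemical arm (CF1 D4), the Ifit rows are brightest on day 12, and Oas1a and Oas2 are brightest in the iPSC columns.

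In the 4-factor arm the interferon-stimulated members were lower on day 2, higher again on day 4 and above the MEF level on day 7. On day 2, 14 of the 37 members tested fell (37.8%, against 1.73% of all 14761 genes) and 0 rose in limma, with 0 at an unadjusted p under 0.05 (1.95% of all genes rose). The median change was -0.70 against 0.04 over all genes, and 35 of 37 members were below 0. The 14 were Isg15, Usp18, Ifit1, Ifit3, Oas1a, Oasl1, Oasl2, Irf7, Irf9, Stat2, Ifi27, Ifi44, Rtp4 and Xaf1. Of the sensors 0 of 4 were called (limma, 3 lower at an unadjusted p under 0.05), and of the antigen-processing members 0 of 4 (0 lower at an unadjusted p under 0.05). On day 4, 3 members were above day 0 (8.11%, against 9.44% of all genes, a share near the background) and 0 fell, with 5 lower at an unadjusted p under 0.05 (7.41% of all genes fell); the 3 were Ifitm1, Bst2 and Ifit1. Scaled as TPM, the members split 3 higher and 2 lower on day 4 and their median changed sign, from 0.07 to -0.15. From day 2 to day 4, 15 rose (40.5%, against 6.15%) and 0 fell (0 at an unadjusted p under 0.05; 4.76% of all genes). From day 4 to day 7, 5 rose (13.5%, against 2.98%), namely Isg15, Usp18, Oasl2, Ifi27 and Mx2, and 0 fell (1 at an unadjusted p under 0.05; 4.63% of all genes). The fibroblast marker sum was 3706 to 4104 FPKM on day 4 and 9115 to 9133 on day 7, and its part in this rise was not tested. Mitochondrially encoded genes held 5.08% to 5.35% of the summed FPKM on day 0 and 9.02% to 9.14% on day 2, and the part of that shift in the early fall was not tested.

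By day 7 of the 4-factor arm, 12 members stood above the MEFs they came from (32.4%, against 6.21% of all genes), 0 had fallen (0 at an unadjusted p under 0.05; 3.91% of all genes), and the median was 0.71 against 0.02. The largest were Ifit1, Ifitm1 and Ifit3, and all 12 were Ifit1, Ifit3, Ifitm1, Rtp4, Mx2, Psmb9, Ifi27, Zbp1, Oasl2, Xaf1, Ifi44 and Psmb8. In the iPSCs the members were split: against day 0, 8 rose (21.6%, against 22.2%) and 9 fell (24.3%, against 19.4%), shares near those of all genes. Against day 7, 5 rose (13.5%, against 23.9%) and 16 fell (43.2%, against 21.8%). By family, all 3 Ifit genes were lower than on day 0 and 4 of 5 OAS genes higher, Oas2 and Oas3 among them. Members tested in this arm leave out Rsad2, which stayed under 1 FPKM; Oas2, Oas3 and Mx1 passed the filter through 1 group only, so their difference there had to appear.

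The chemical arm also began with a loss. On day 4, 21 of 36 tested members fell (58.3%, against 8.08% of all 15442 genes), 3 rose (8.33%, against 11.7%), and the median was -1.47 against 0.04. All 8 members of the group of other interferon-stimulated genes (Ifi27, Ifi35, Ifi44, Xaf1, Rtp4, Parp9, Parp14 and Dtx3l) fell. The 3 that rose were Ifitm1, Ifitm2 and Ifit2. All 13 macrophage markers tested fell on this day too, and the summed marker level given above fell with them; the part of those cells in the members' change was not tested. Mitochondrially encoded genes went from 4.77% and 5.58% of the summed FPKM on day 0 to 13.2% and 12.9% on day 4, and the part of that shift was not tested either. On day 8, 8 members were still below day 0 (22.2%, against 12.4%) and 4 were above it (11.1%, against 11.9%), these being Ifitm1, Ifit2, Ifitm2 and Irf1; with TPM scaling it was 14 below and 4 above. Between day 4 and day 8, 11 rose (30.6%, against 5.61%) and 1, Ifitm1, fell (2.78%, against 7.47%).

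A late rise followed, led by Ifit1, Ifit3 and Isg15. From day 8 to day 12, 20 of 36 members rose (55.6%, against 3.52% of all genes) and 0 fell, with 1 lower at an unadjusted p under 0.05 (7.69% of all genes fell); the median was 1.11 against -0.06. The macrophage marker sum was 11.4 to 12.0 on day 8 and 6.32 to 6.57 on day 12, with 6 of 15 genes at 0 in both libraries on day 12. The summed FPKM of 10 fibroblast markers was 3153 to 3214 on day 8 and 14510 to 14820 on day 12, with 5 markers called higher and 3 lower. That of 6 epithelial markers went from 27.1 to 28.2 on day 8 to 55.7 to 56.2 on day 12. The part of macrophages, fibroblasts or epithelial cells in the members' rise was not tested. Against day 0, 11 members were higher on day 12 (30.6%, against 10.1%) and 2, Ifi44 and Oas1a, were lower (5.56%, against 15.5%). Chemical iPSCs had 13 members above day 0 (36.1%, against 21.1%) and 6 below (16.7%, against 19.4%); scaled as TPM the split was 9 and 9 in place of 13 and 6: Ddx58, Oasl2, Bst2 and Ifitm3 were called only on the FPKM scale, and 3 other members were called lower only on the TPM scale. Against day 12 they had 8 higher (22.2%, against 28.4%) and 10 lower (27.8%, against 20.8%). Mx1 and Rsad2 were not tested in this arm, and Oas3 was tested through 1 group only.

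**Figure D2:**
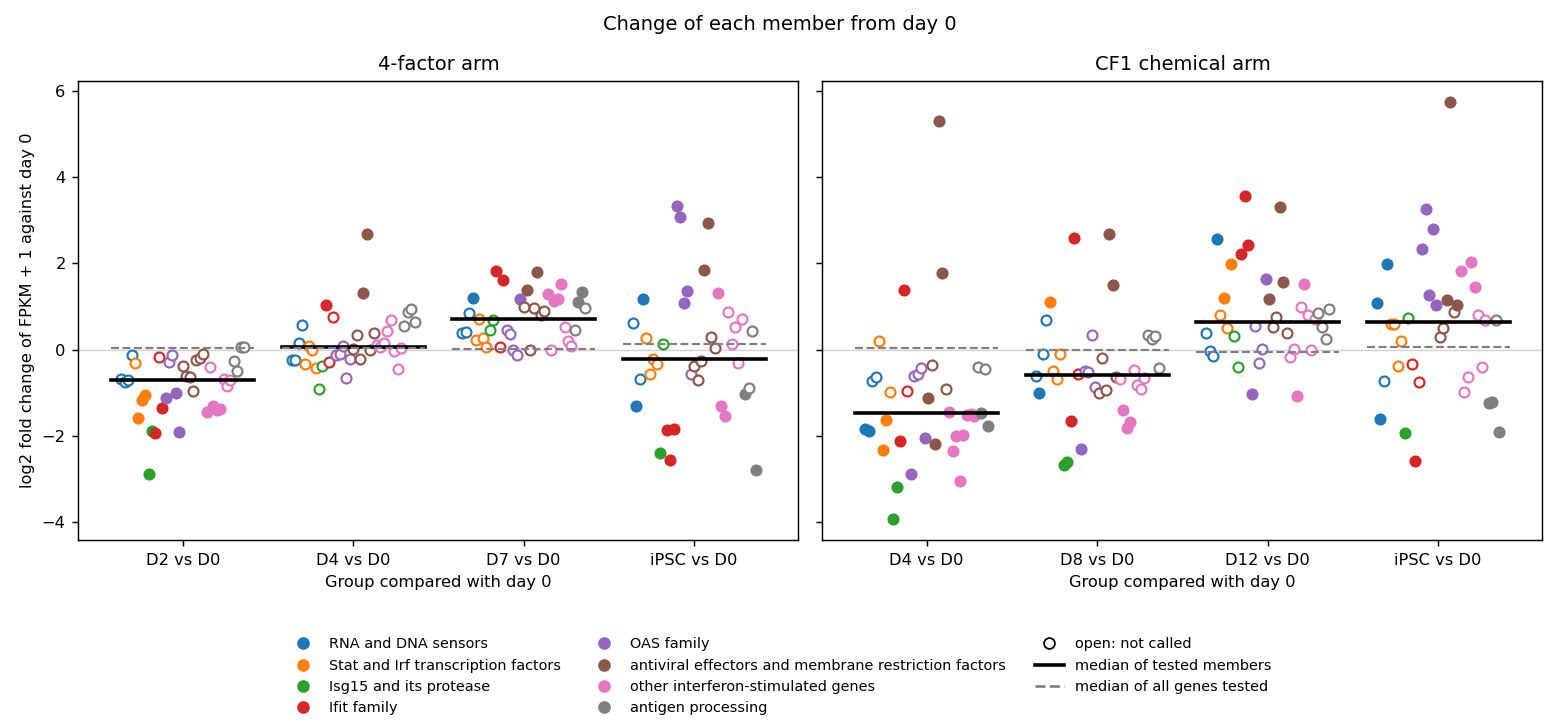
Change from day 0 of each tested member (points, coloured by role, open where not called) on the log2(FPKM + 1) scale, at each later day and in iPSCs, with the 4-factor arm at left, the CF1 chemical arm at right, and the median of the members (solid) and of all genes (dashed) as lines. The median of the members lay at -0.70 on day 2 of the 4-factor arm and at -1.47 on day 4 of the chemical arm, and above 0 on days 7 and 12.

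The Ifit genes, whose proteins bind viral RNA and block its translation, differed from one another in course. Ifit1 was 5.92 and 6.15 FPKM in the 2 libraries of 129XOG2 MEFs, 0.812 and 0.856 on day 2, 12.3 and 14.7 on day 4, 24.7 and 23.3 on day 7 and 1.08 and 0.806 in iPSCs. In the chemical arm it was 6.93 and 5.83 on day 0, 0.509 and 0.919 on day 4, 1.23 and 1.48 on day 8, 32.8 and 34.0 on day 12 and 4.93 and 4.76 in iPSCs. Day 7 and day 12 were each the highest group of their arm and did not overlap any other group of it. Ifit1 fell by 1.94 ± 0.14 (log2, SE; adjusted p = 7.94e-05) on day 2 of the 4-factor arm and by 2.11 ± 0.13 (log2, SE; adjusted p = 1.26e-06) on day 4 of the chemical arm. From day 8 to day 12 it rose by 3.87 ± 0.13 (log2, SE; adjusted p = 6.81e-08), and in 4-factor iPSCs it fell by 3.69 ± 0.14 (log2, SE; adjusted p = 3.95e-08) from day 7.

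Ifit2, the neighbour of Ifit1 and Ifit3, took another course. In the 4-factor arm its libraries lay close together before the iPSC stage: 6.32 and 6.22 FPKM on day 0, 5.45 and 5.46 on day 2, 5.12 and 4.87 on day 4, 6.88 and 6.43 on day 7, and then 0.241 and 0.239 in iPSCs. In the chemical arm it climbed from 6.51 and 7.85 on day 0 through 20.03 and 20.7 on day 4 and 48.3 and 48.1 on day 8 to 95.4 and 96.1 on day 12, and stood at 0.334 and 0.381 in iPSCs. Each of these 5 chemical groups lay apart from the other 4. While Ifit1 was below its day 0 level on day 4, Ifit2 was above it, at 1.39 ± 0.08 (log2, SE; adjusted p = 8.62e-07), and on day 12 it was above day 0 by 3.57 ± 0.08 (log2, SE; adjusted p = 3.13e-09). In chemical iPSCs it fell by 6.16 ± 0.08 (log2, SE; adjusted p = 5.53e-11) from day 12, the largest change of any member in any comparison within an arm. As a share of day 0, iPSCs kept 3.83% of Ifit2 in the 4-factor arm and 4.98% in the chemical arm. Ifit3 followed Ifit1: it was 2.08 and 2.62 on day 8 and 25.8 and 25.4 on day 12 of the chemical arm, a rise of 3.00 ± 0.11 (log2, SE; adjusted p = 9.92e-08), and 0.772 and 0.777 in 4-factor iPSCs. Ifit3 has a near-identical copy, Ifit3b, and reads may have been split between them, so its level is uncertain.

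**Figure D3:**
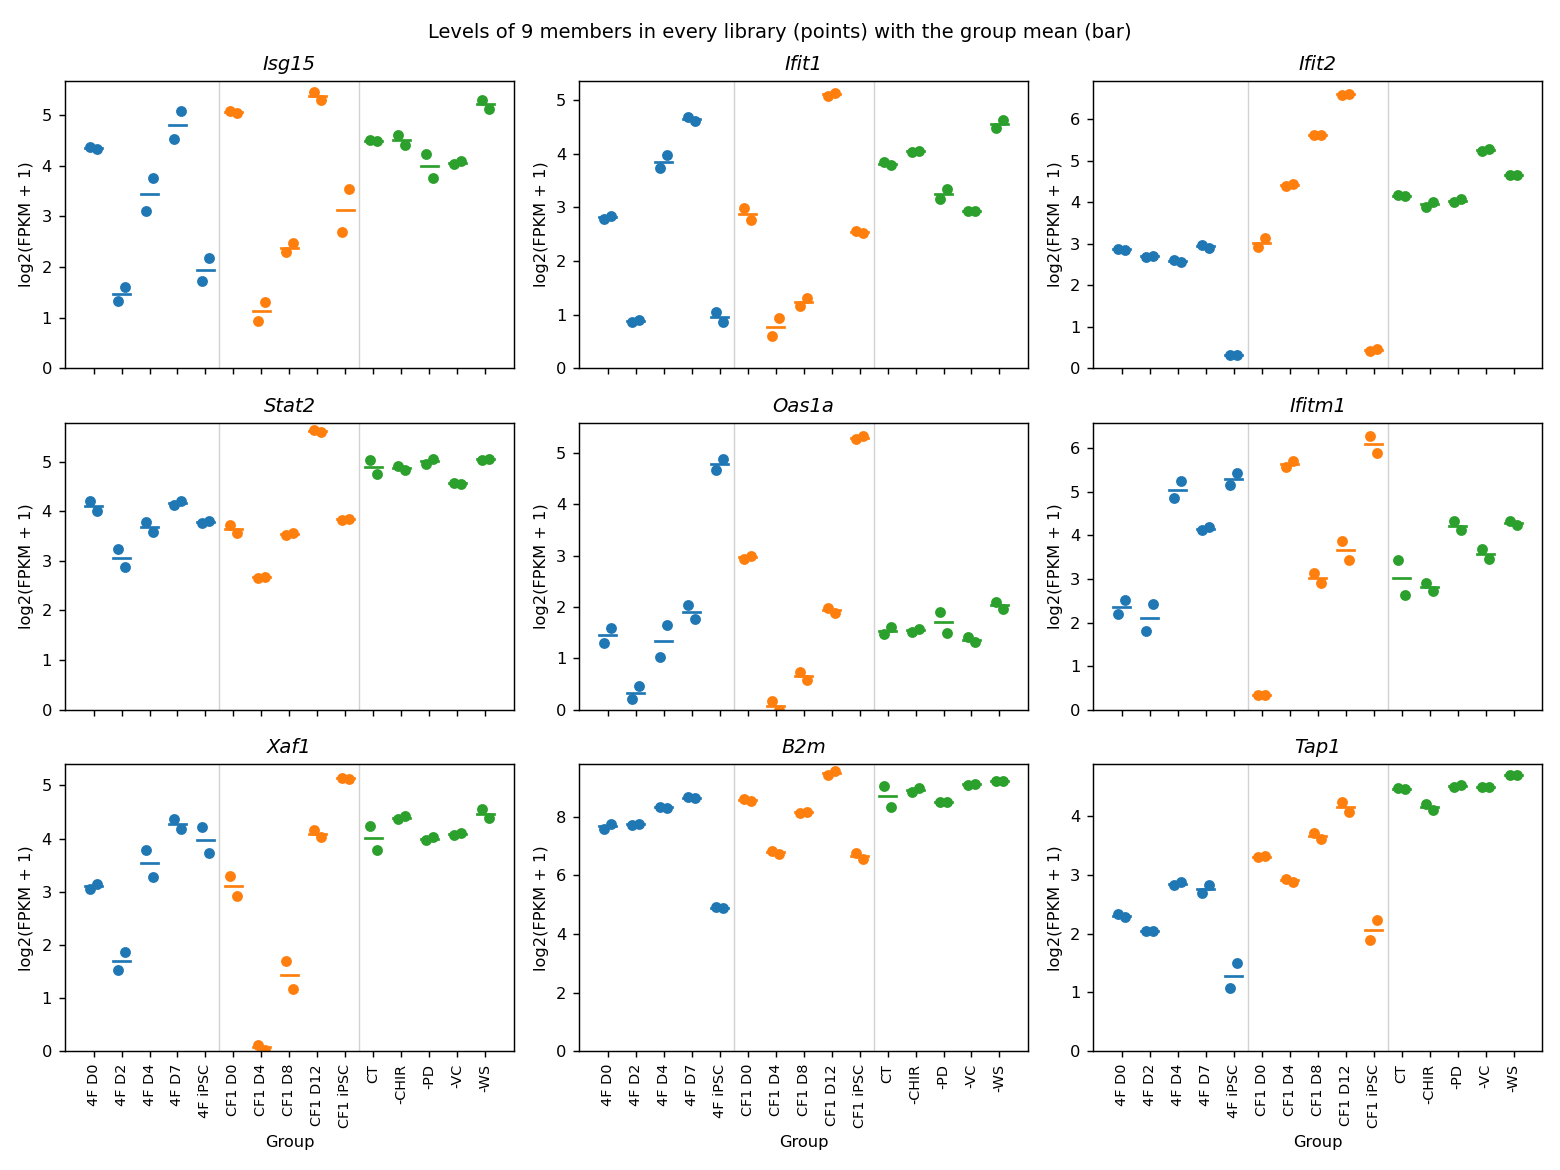
Level of Isg15, Ifit1, Ifit2, Stat2, Oas1a, Ifitm1, Xaf1, B2m and Tap1 as log2(FPKM + 1) in each of the 30 libraries (points), by group, 1 panel per gene. Ifit2 climbs through days 4, 8 and 12 of the chemical arm while the other Ifit gene, Ifit1, is high only on day 12, and Ifit2 is lowest in iPSCs, where Oas1a is highest.

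Isg15 is a ubiquitin-like protein that is attached to other proteins during an interferon response, and Usp18 is the protease that removes it and also damps receptor signalling. Isg15 was 19.7 and 18.9 FPKM on day 0 of the 4-factor arm, 1.51 and 2.04 on day 2, 7.58 and 12.6 on day 4, 21.9 and 32.5 on day 7 and 2.30 and 3.49 in iPSCs. Chemical reprogramming took it from 32.9 and 31.6 on day 0 to 0.916 and 1.48 on day 4, 3.93 and 4.51 on day 8 and 42.5 and 37.96 on day 12, with 5.48 and 10.7 in iPSCs. Its early fall was the largest of any member on those days, -2.88 ± 0.26 (log2, SE; adjusted p = 0.000293) on day 2 of the 4-factor arm and -3.93 ± 0.24 (log2, SE; adjusted p = 1.18e-06) on day 4 of the chemical arm. In iPSCs it fell by 2.40 ± 0.26 (log2, SE; adjusted p = 3.72e-05) and by 1.94 ± 0.24 (log2, SE; adjusted p = 6.53e-05) from day 0. The mRNA has an exon length of 756 bp, and in 4-factor iPSCs the 440 genes under 1000 bp were 0.40 higher (median, log2) in replicate 2 than in replicate 1.

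Usp18 parted from Isg15 in the iPSCs. Its day 0 level in the chemical arm was 11.8 and 10.4 FPKM, then 0.377 and 0.278 on day 4, 0.889 and 1.11 on day 8, 8.93 and 7.49 on day 12 and 19.5 and 18.7 in iPSCs, the highest group of all 15. Its 4-factor levels were 4.51 and 4.36, 0.563 and 0.396, 2.87 and 3.58 and 7.93 and 7.58 on days 0, 2, 4 and 7, and 4.05 and 6.04 in iPSCs. It fell by 3.19 ± 0.11 (log2, SE; adjusted p = 3.6e-08) on day 4 of the chemical arm and rose by 1.13 ± 0.11 (log2, SE; adjusted p = 1.14e-05) from day 12 to iPSCs. Over the same step Isg15 fell by 2.25 ± 0.24 (log2, SE; adjusted p = 2.02e-05).

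OAS enzymes make the short oligoadenylates that activate RNase L, and the family here also holds the OAS-like genes Oasl1 and Oasl2. Of the 5 members, 4 (Oas1a, Oas2, Oas3 and Oasl1) were highest in the iPSCs of each arm. Oas2 and Oas3 in the 4-factor arm, and Oas3 in the chemical arm, passed the filter through the iPSCs only. Their rise there had to appear and is no support for the pattern. Oas1a was 1.47 and 2.02 FPKM on day 0 of the 4-factor arm, 0.150 and 0.370 on day 2, 1.04 and 2.13 on day 4, 3.12 and 2.39 on day 7 and 24.2 and 28.6 in iPSCs. Chemical reprogramming gave 6.66 and 6.94, 0.121 and 0, 0.670 and 0.501 and 2.96 and 2.70 on days 0, 4, 8 and 12, and 37.4 and 39.0 in iPSCs. In each arm the iPSC libraries were above every other library. The rise from day 0 was 3.32 ± 0.22 (log2, SE; adjusted p = 1.48e-06) in the 4-factor arm and 2.33 ± 0.10 (log2, SE; adjusted p = 4.96e-08) in the chemical arm. Oas1a is one of a cluster of closely similar Oas1 genes, and reads may have been split between them.

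Oas2 and Oas3, its neighbours on chromosome 5, were near 0 outside the iPSCs. Oas2 was 10.0 and 8.89 FPKM in 4-factor iPSCs and 13.8 and 13.6 in chemical iPSCs, and at most 1.31 in any other library. Oas3 reached 1.41 and 1.32 and 2.83 and 2.29 there. The 2 OAS-like genes on the same chromosome differed from each other. Oasl1 was 4.45 and 5.99 in 4-factor iPSCs and at most 2.00 in the other libraries of that arm. It was 16.7 and 18.4 in chemical iPSCs against 1.66 and 1.76 on day 12, a rise of 2.77 ± 0.18 (log2, SE; adjusted p = 4.9e-07). Oasl2 instead was highest on day 12, with 6.92 and 5.58 on day 0, 0.819 and 0.677 on day 4, 2.98 and 3.01 on day 8, 21.8 and 20.9 on day 12 and 15.2 and 12.4 in iPSCs. Oasl2 in the 4-factor arm was 4.05 and 3.57 on day 0, 0.285 and 0.286 on day 2, 3.43 and 2.89 on day 4, 10.5 and 9.35 on day 7 and 2.09 and 2.40 in iPSCs. Its changes were -1.90 ± 0.14 (log2, SE; adjusted p = 7.94e-05) on day 2 and 2.48 ± 0.12 (log2, SE; adjusted p = 5.7e-07) from day 8 to day 12. The calls of Oas1a and Oasl1 on day 2 of the 4-factor arm were each lost when any 1 of the 4 libraries was left out (adjusted p up to 0.11 for Oas1a).

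Among the sensors, Zbp1, which senses left-handed nucleic acid and can trigger necroptosis, changed most. It was 0.323 and 0.662 FPKM on day 0 of the 4-factor arm, 0.222 and 0.497 on day 2, 1.44 and 1.00 on day 4, 2.45 and 2.37 on day 7 and 1.91 and 2.82 in iPSCs. The chemical arm had 1.34 and 0.757 on day 0, 0.442 and 0.177 on day 4, 2.47 and 2.12 on day 8, 11.9 and 10.2 on day 12 and 6.78 and 7.31 in iPSCs. Day 12 stood above all other groups, 2.57 ± 0.16 (log2, SE; adjusted p = 1.08e-06) over day 0. In 4-factor iPSCs the rise over day 0 was 1.17 ± 0.19 (log2, SE; adjusted p = 0.000421), and it was 0.97, under 2-fold, without iPSC replicate 2.

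Ddx58 was the most abundant sensor in every group, per length. Its levels were 14.7 and 13.6, 8.00 and 9.06, 13.2 and 10.5 and 18.6 and 18.7 FPKM on days 0, 2, 4 and 7 of the 4-factor arm and 24.6 and 19.96 in iPSCs. The chemical arm had 17.2 and 18.7, 4.23 and 4.45, 11.6 and 11.4 and 22.8 and 25.0 on days 0, 4, 8 and 12 and 39.4 and 38.8 in iPSCs. It fell by 1.83 ± 0.07 (log2, SE; adjusted p = 6.23e-08) on day 4 of the chemical arm, and its rise in chemical iPSCs over day 0, 1.08 ± 0.07 (log2, SE; adjusted p = 7.7e-07), was 0.83 with TPM scaling and was then not called. Ifih1, the sensor of long double-stranded RNA, went the other way in iPSCs: 0.2995 and 0.0901 against 2.27 and 1.67 on day 0 of the 4-factor arm and 0.629 and 0.515 against 4.03 and 3.57 of the chemical arm, changes of -1.31 ± 0.15 (log2, SE; adjusted p = 4.64e-05) and -1.61 ± 0.11 (log2, SE; adjusted p = 1.03e-06). Dhx58, a regulator of both, stayed between 0.38 and 3.51 FPKM and fell only from day 7 to iPSCs of the 4-factor arm (-1.52 ± 0.13 (log2, SE; adjusted p = 5.91e-06)).

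Irf7 amplifies the interferon response and Stat2 carries the signal from the type I receptor. Irf7 was 3.64 and 3.31 FPKM on day 0 of the 4-factor arm, 0.475 and 0.540 on day 2, 3.83 and 3.67 on day 4, 5.37 and 7.41 on day 7 and 1.52 and 2.64 in iPSCs. The chemical arm had 4.68 and 5.61 on day 0, 0.205 and 0.243 on day 4, 3.56 and 3.16 on day 8, 13.8 and 12.5 on day 12 and 8.03 and 8.59 in iPSCs. The lowest groups, day 2 and day 4, did not overlap any other group of their arm. Irf7 fell by 1.57 ± 0.20 (log2, SE; adjusted p = 0.00128) on day 2 and by 2.32 ± 0.11 (log2, SE; adjusted p = 1.78e-07) on day 4, and was above day 0 on day 12 by 1.21 ± 0.11 (log2, SE; adjusted p = 9.43e-06).

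Stat2 was 17.3 and 15.1 FPKM on day 0 of the 4-factor arm, 8.47 and 6.33 on day 2, 12.8 and 10.9 on day 4, 16.4 and 17.4 on day 7 and 12.6 and 12.9 in iPSCs. Its chemical levels were 12.15 and 10.8, 5.31 and 5.38 and 10.5 and 10.7 on days 0, 4 and 8, then 48.7 and 47.2 on day 12 and 13.2 and 13.4 in iPSCs. Day 12 lay apart from and above every other chemical group. The rise over day 0 was 1.98 ± 0.07 (log2, SE; adjusted p = 2.92e-08); the fall on day 2 of the 4-factor arm, -1.04 ± 0.15 (log2, SE; adjusted p = 0.00268), was under 2-fold without day 0 replicate 1 (-0.95) or day 2 replicate 2 (-0.86). Irf9, a partner of Stat2, fell by 1.16 ± 0.17 (log2, SE; adjusted p = 0.00284) and by 1.62 ± 0.11 (log2, SE; adjusted p = 1.95e-06) on the same days. Irf1, a factor induced by interferon gamma, was not called lower in any comparison. It was 7.13 and 6.72 on day 0 of the chemical arm, 7.87 and 8.38 on day 4 and 16.7 and 15.4 on day 8, where it was above day 0 by 1.11 ± 0.08 (log2, SE; adjusted p = 2.22e-06). In the 4-factor arm its libraries ranged from 6.20 to 12.23 FPKM with no call.

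Ifitm1, a membrane protein that keeps viruses from fusing with the cell and is also known from primordial germ cells, was one of the 3 members that rose on day 4 of the chemical arm. It was 0.273 and 0.266 FPKM on day 0 of the chemical arm, 46.6 and 51.3 on day 4, 7.85 and 6.51 on day 8, 13.6 and 9.86 on day 12 and 77.0 and 58.1 in iPSCs. In the 4-factor arm it was 3.59 and 4.70 on day 0, 2.51 and 4.33 on day 2, 27.9 and 36.7 on day 4, 16.3 and 17.1 on day 7 and 34.5 and 41.8 in iPSCs. Both arms thus had a higher level on day 4 than on the next day sampled, and a high iPSC level, and the chemical day 0 libraries lay below all others. The rise was 5.30 ± 0.17 (log2, SE; adjusted p = 2.01e-08) on day 4 of the chemical arm and 2.69 ± 0.22 (log2, SE; adjusted p = 3.41e-05) on day 4 of the 4-factor arm. Ifitm2 rose with it on day 4 of the chemical arm, from 98.0 and 98.6 to 338 and 336 (1.77 ± 0.10 (log2, SE; adjusted p = 6.81e-07)), while Ifitm3 was 202 and 182 and 101 and 100 (-0.92 ± 0.07 (log2, SE; adjusted p = 6.67e-06)). The 3 Ifitm genes are similar in sequence and lie together on chromosome 7.

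Bst2 (tetherin), which holds budding virus at the cell surface, was 27.5 and 30.3 FPKM on day 0 of the 4-factor arm, 14.0 and 14.6 on day 2, 77.5 and 68.6 on day 4, 52.2 and 62.8 on day 7 and 88.1 and 130 in iPSCs. Its chemical levels were 86.7 and 74.1 on day 0, 15.4 and 18.4 on day 4, 41.0 and 41.6 on day 8, 145 and 127 on day 12 and 163 and 196 in iPSCs. It was lowest at the first reprogramming day sampled in each arm and highest in iPSCs. Bst2 fell by 2.19 ± 0.12 (log2, SE; adjusted p = 6.01e-07) on day 4 of the chemical arm and rose by 1.85 ± 0.18 (log2, SE; adjusted p = 1.82e-05) in 4-factor iPSCs over day 0. The rise in chemical iPSCs, 1.15 ± 0.12 (log2, SE; adjusted p = 2e-05), was 0.88 with TPM scaling. The other antiviral effectors were scarce: Mx1 reached at most 1.85 FPKM, Cmpk2 1.28 and Rsad2 0.806. Mx2 reached 4.25 and 4.31 on day 7 of the 4-factor arm and 4.83 and 5.21 on day 12 of the chemical arm; it is annotated as a polymorphic pseudogene.

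Xaf1, an interferon-stimulated gene tied to apoptosis, was among the members with the widest range. It was 8.82 and 6.56 FPKM on day 0 of the chemical arm, 0.0878 and 0.0204 on day 4, 2.23 and 1.26 on day 8, 16.9 and 15.3 on day 12 and 34.3 and 33.9 in iPSCs. The 4-factor levels were 7.30 and 7.85 on day 0, 1.90 and 2.67 on day 2, 12.8 and 8.70 on day 4, 19.7 and 17.0 on day 7 and 17.7 and 12.3 in iPSCs. The day 4 libraries of the chemical arm were close to 0 and apart from all others. It fell by 3.03 ± 0.18 (log2, SE; adjusted p = 8.43e-07) there, rose by 2.66 ± 0.18 (log2, SE; adjusted p = 3.7e-06) from day 8 to day 12, and was above day 0 in chemical iPSCs by 2.03 ± 0.18 (log2, SE; adjusted p = 5.45e-06).

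Ifi27, a small hydrophobic interferon-stimulated protein, was abundant throughout. Its levels were 33.2 and 37.7, 12.6 and 12, 30.1 and 48.2 and 90.3 and 85.9 FPKM on days 0, 2, 4 and 7 of the 4-factor arm and 79.8 and 99.5 in iPSCs. The chemical arm had 45.2 and 46.1, 14.7 and 17.9, 30.5 and 26.4 and 40.3 and 40.5 on days 0, 4, 8 and 12 and 192 and 143 in iPSCs. It was high in iPSCs of both arms, by 1.31 ± 0.21 (log2, SE; adjusted p = 0.000372) and 1.84 ± 0.14 (log2, SE; adjusted p = 2.22e-06) over day 0. Of the remaining members of this class, Rtp4 rose to 16.3 and 17.2 on day 7 and 16.2 and 17.8 on day 12, and Ifi44 was at most 6.22, on day 7 of the 4-factor arm. Parp9, its ubiquitin-ligase partner Dtx3l and Parp14 fell on day 4 of the chemical arm by 1.52, 1.53 and 1.49. Parp9 and Dtx3l overlap by 682 bp on opposite strands; the sources used here do not say if strand was used in counting.

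Of the 4 antigen-processing members, B2m was the most abundant, and it fell in the iPSCs of both arms. B2m was 192 and 215 FPKM on day 0 of the 4-factor arm, 208 and 216 on day 2, 323 and 313 on day 4, 403 and 394 on day 7 and 29.0 and 28.2 in iPSCs. In the chemical arm it was 387 and 366 on day 0, 113 and 106 on day 4, 281 and 283 on day 8, 691 and 751 on day 12 and 107 and 93.2 in iPSCs. The iPSC libraries were the lowest of the 4-factor arm, and those of the chemical arm overlapped day 4. B2m fell in iPSCs by 2.78 ± 0.12 (log2, SE; adjusted p = 6.86e-08) and by 1.90 ± 0.08 (log2, SE; adjusted p = 3.52e-08) from day 0, to 14.1% and 26.6% of it. On day 4 of the chemical arm it fell by 1.77 ± 0.08 (log2, SE; adjusted p = 1.35e-07), while on day 2 of the 4-factor arm it was 0.06 ± 0.12 (log2, SE; adjusted p = 0.805) from day 0 and not called.

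Tap1 was 4.01 and 3.85 FPKM on day 0 of the 4-factor arm, 3.111 and 3.10 on day 2, 6.05 and 6.37 on day 4, 5.46 and 6.05 on day 7 and 1.11 and 1.82 in iPSCs. The chemical arm had 8.80 and 8.93, 6.58 and 6.36, 12.05 and 11.2 and 17.8 and 15.8 on days 0, 4, 8 and 12 and 2.70 and 3.68 in iPSCs. The iPSC groups were again lowest, at -1.02 ± 0.16 (log2, SE; adjusted p = 0.000334) and -1.25 ± 0.12 (log2, SE; adjusted p = 8.58e-06) against day 0. The first of these was under 2-fold without day 0 replicate 1 (-0.99) or iPSC replicate 1 (-0.81). Psmb8 had the same low iPSC level, 0.252 and 0.386 and 1.11 and 1.55, and was 6.76 and 6.70 on day 12. Psmb9 was under 1 FPKM on day 0 in both arms and rose on day 7 of the 4-factor arm by 1.33 ± 0.21 (log2, SE; adjusted p = 0.0014). Psmb9 and Tap1 overlap by 212 bp on opposite strands.

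The arms share day 0, day 4 and iPSCs by name, and the difference between them was tested in 1 fit over both tables; it cannot tell reprogramming method, mouse stock and table apart. From day 0 to day 4 the chemical arm lost more: 25 of 37 members were lower relative to the 4-factor arm (67.6%, against 13.2% of all 16205 genes) and 3 higher (8.11%, against 14.2%). The largest differences were -3.49 ± 0.23 (log2, SE; adjusted p = 1.68e-08) for Bst2, -3.47 ± 0.30 (log2, SE; adjusted p = 3.06e-07) for Xaf1 and -3.15 ± 0.19 (log2, SE; adjusted p = 4.31e-09) for Ifit1. The 3 higher were Ifitm1, Ifitm2 and Ifit2. All 13 macrophage markers tested in this fit were lower at an unadjusted p under 0.05, 10 of them called. From day 0 to iPSCs, 9 members were higher in the chemical arm (24.3%, against 5.91%), led by Ifitm1 and Oasl2, and 0 lower (limma, 2 at an unadjusted p under 0.05; 4.94% of all genes).

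In the removal experiment few members changed when 1 molecule was withdrawn for the last days. The median of the members was 0.01 without CHIR, 0.05 without PD, -0.28 without VC and 0.43 without WS, against 0.03, 0.08, 0.13 and 0.06 over all genes. Without CHIR, 0 of 31 members rose and 0 fell in limma, where 0.662% and 0.309% of all 13290 genes were called. At an unadjusted p under 0.05 in limma, 4 members were up and 5 down. Without PD, 1 rose, Ifitm1 (3.23%, against 0.790%), and 0 fell, against 0.482% of all genes called lower. In limma 6 members were lower at an unadjusted p under 0.05. Without VC, 1 rose, Ifit2 (3.23%, against 0.918%), and 0 fell, against 1.41% of all genes called lower. In limma 15 members were lower at an unadjusted p under 0.05. Without WS, 1 rose, again Ifitm1 (3.23%, against 0.444%), and 0 fell, against 0.467% of all genes called lower. Here 30 of 31 members had a positive change. At an unadjusted p under 0.05 in limma, 23 were higher and 0 lower. No share of all genes was worked out for these counts, and all removals were set against the same 2 CT libraries. The member median of 0.43 became 0.31 without CT replicate 2 (0.02 over all genes). With TPM scaling it was 0.29 (-0.06 over all genes), with 30 of 35 members positive. Oas2, Oas3, Oasl1, Mx1, Rsad2, Cmpk2 and Ifi44 were not tested there.

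**Figure D4:**
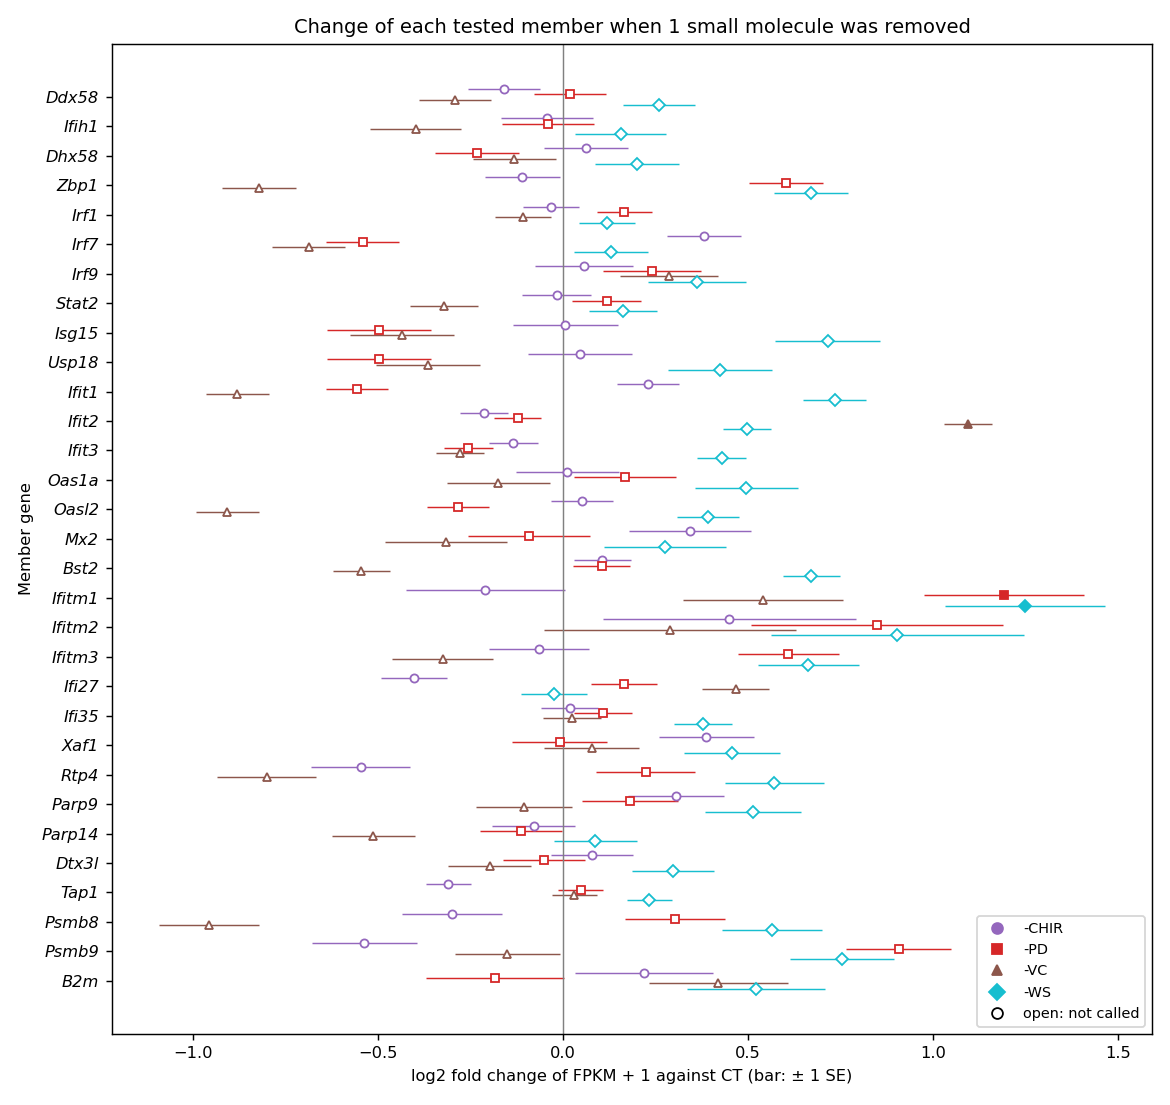
Change of each of the 31 tested members (rows) against CT when CHIR, PD, VC or WS was withdrawn, as log2 fold change of FPKM + 1 with bars of 1 SE; filled symbols are called. Points of the removal of WS lie mostly right of 0 and those of the removal of VC mostly left of it, and the filled symbols are Ifit2 without VC and Ifitm1 without PD and without WS.

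Withdrawing VC moved Ifit2 apart from its family. Ifit2 was 17.1 and 16.6 FPKM in CT, 13.9 and 14.95 without CHIR, 15.1 and 15.7 without PD, 36.5 and 37.8 without VC and 24.3 and 24.1 without WS. The libraries without VC lay above all others. The rise was 1.09 ± 0.06 (log2, SE; adjusted p = 9.68e-06), and 0.97, under 2-fold, with TPM scaling. Ifit1 was 13.4 and 12.8 in CT, 15.4 and 15.7 without CHIR, 7.96 and 9.20 without PD, 6.64 and 6.66 without VC and 21.2 and 23.7 without WS, so it was lowest where Ifit2 was highest; its change without VC, -0.88 ± 0.08 (log2, SE; adjusted p = 0.000159), was not called. With TPM scaling the members called without VC were 0 higher and 5 lower. The fibroblast marker sum was 21470 and 27990 FPKM in CT and 10890 and 11080 without VC, and its part in these differences was not tested.

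Isg15 spread in the same way as Ifit1, with 21.7 and 21.3 FPKM in CT, 23.2 and 20.1 without CHIR, 17.8 and 12.5 without PD, 15.3 and 15.9 without VC and 38.3 and 33.7 without WS. The highest libraries were those without WS, and the groups without PD and without VC overlapped. Ifitm1 was 9.74 and 5.21 in CT, 19.0 and 16.4 without PD and 19.1 and 17.7 without WS, changes of 1.19 ± 0.22 (log2, SE; adjusted p = 0.0081) and 1.25 ± 0.22 (log2, SE; adjusted p = 0.00773). Neither call held when CT replicate 2 was left out (0.80 and 0.85). The call for the removal of PD was also lost when replicate 1 of that removal was left out. The call for the removal of WS was also lost when either of its own libraries was left out, and with no filter on low values. CT replicate 2 had 2.03% of its FPKM in mitochondrially encoded genes against 6.52% in replicate 1, and the part of that difference was not tested. Zbp1 was 4.83 and 4.03 in CT, 3.88 and 4.16 without CHIR, 6.86 and 7.62 without PD, 2.02 and 2.11 without VC and 7.99 and 7.25 without WS; the libraries without VC were the lowest and did not overlap the others. Irf7 was 6.84 and 6.10 in CT and 3.67 and 3.59 without VC, again the lowest libraries. Stat2 was 31.6 and 25.8 in CT, 29.0 and 27.4 without CHIR, 29.9 and 32.2 without PD, 22.8 and 22.5 without VC and 31.8 and 32.3 without WS. B2m was 527 and 321 in CT, with the other 8 libraries between 360 and 593, so the 2 CT libraries lay further apart than those of any other group there. Tap1 ran from 16.1 without CHIR to 24.9 without WS. Oas1a ran from 1.49 without VC to 3.29 without WS, and none of these differences was called.

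The genes that make the signal were close to absent as RNA. Of 21 interferon genes matched, 13 were listed at 0 in all 30 libraries and 8 were above 0 in at least 1. Only Ifnk, a type I interferon of keratinocytes, reached 1 FPKM, with 1.04 and 0.581 without PD and 1.02 and 1.57 without WS, against 0.476 and 0.280 in CT; the highest value of any of the others was 0.487. Most of the receptors and their kinases were lower in iPSCs than in MEFs. Against day 0, 6 of 9 fell and 1 rose in 4-factor iPSCs, and 7 fell and 1 rose in chemical iPSCs. Of all genes, 19.4% fell in either arm and 22.2% and 21.1% rose. Ifngr1, a chain of the interferon gamma receptor, was 15.9 and 14.7 on day 0 and 1.49 and 1.58 in 4-factor iPSCs, and 16.0 and 16.2 and 2.55 and 1.73 in the chemical arm. On day 2 of the 4-factor and day 4 of the chemical arm, 0 of 9 receptors and kinases rose or fell in either arm in limma (1 up and 0 down at an unadjusted p under 0.05 on day 2, 4 higher and 3 lower on day 4). Of all genes 1.95% were called higher and 1.73% lower on day 2 and 11.7% and 8.08% on day 4, so a count of 0 among 9 is near the background. Ifnar1 and Ifngr1 were 34.4 and 34.8 and 21.8 and 20.01 on day 4 of the chemical arm, above their day 0 levels of 18.0 and 18.2 and 16.0 and 16.2.

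Of 7 feedback inhibitors, Socs1, which blocks Janus kinases, rose on day 4 of the chemical arm by 2.27 ± 0.12 (log2, SE; adjusted p = 6e-07), from 1.77 and 1.73 to 11.3 and 13.3 FPKM. Socs3 rose with it by 1.29 ± 0.08 (log2, SE; adjusted p = 1.08e-06), and Ptpn6, a phosphatase of blood cells, fell by 1.17 ± 0.12 (log2, SE; adjusted p = 3.82e-05). Irf2, a repressor of interferon genes, fell in iPSCs by 2.51 ± 0.13 (log2, SE; adjusted p = 3.16e-07) and by 2.31 ± 0.12 (log2, SE; adjusted p = 1.95e-07). Of the adaptors and kinases below the sensors, 1 rose and 4 of 11 fell in 4-factor iPSCs, and 1 rose and 6 of 12 fell in chemical iPSCs, beside the same shares of all genes as for the receptors (19.4% lower in both); Tmem173 (STING) went from 18.8 and 22.1 on day 0 to 1.73 and 1.78 in 4-factor iPSCs. Ikbke, a kinase of Irf3 and Irf7, rose by 3.29 ± 0.15 (log2, SE; adjusted p = 1.43e-07) on day 8 of the chemical arm, where it was 27.6 and 26.4 against 1.67 and 2.09 on day 0.

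The interferon-inducible GTPases, which attack vacuoles of intracellular microbes, moved on the same days as the members. Of 13 tested in the chemical arm, 7 fell (8.08% of all genes did) and 0 rose on day 4 (11.7% of all genes; 0 at an unadjusted p under 0.05 in limma). From day 8 to day 12, 11 rose (3.52% of all genes) and 0 fell (7.69% of all genes; 0 at an unadjusted p under 0.05). Gbp6 was 1.19 and 1.11 FPKM on day 8 and 29.6 and 28.5 on day 12, a rise of 3.81 ± 0.09 (log2, SE; adjusted p = 1.4e-08). On day 2 of the 4-factor arm 2 of 9 fell, Igtp and Iigp1, against 1.73% of all genes. Tgtp1 was 6.90 and 6.10 in 4-factor and 10.3 and 10.9 in chemical iPSCs against at most 0.515 elsewhere. It passed the filter through the iPSCs only, so its difference there had to appear. Of 27 further interferon-stimulated genes tested in the chemical arm, 14 fell and 0 rose on day 4 (2 higher at an unadjusted p under 0.05 in limma), against 8.08% and 11.7% of all genes. From day 8 to day 12, 12 rose and 0 fell (0 lower at an unadjusted p under 0.05), against 3.52% and 7.69% of all genes. Ifi205, an AIM2-like gene, was 0.755 and 0.789 on day 8 and 29.0 and 31.8 on day 12, and fell without VC by 1.73 ± 0.11 (log2, SE; adjusted p = 1.21e-05). Gbp, Tgtp and Ifi200 genes have near-identical copies, so single levels are uncertain.

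The heavy chains of MHC class I, the partners of B2m, fell early in the chemical arm and rose from day 4 to day 8. On day 4, 6 of 10 fell and 1 rose, against 8.08% and 11.7% of all genes. From day 4 to day 8, 7 rose, against 5.61% of all genes, and 0 fell, against 7.47% (0 lower at an unadjusted p under 0.05 in limma). From day 8 to day 12, when B2m rose, 1 of 10 rose and 1 fell, against 3.52% and 7.69% of all genes. Counts of 1 among 10 are near the background. Their summed FPKM was 117 to 127 on day 0, 38.2 to 38.8 on day 4, 156 on day 8, 161 to 163 on day 12 and 75.9 to 78.0 in iPSCs. H2-D1 was 48.6 and 42.4 on day 0, 6.70 and 6.26 on day 4 and 48.6 and 48.0 on day 8, and fell by 2.63 ± 0.08 (log2, SE; adjusted p = 1.9e-08) on day 4. H2-Q10 was the one that rose, from 0 and 0.0923 to 5.19 and 4.41 on day 4 and 29.0 and 28.5 on day 8. H2-T23, H2-K1 and H2-D1 rose on day 7 of the 4-factor arm, and the sum went from 52.2 to 52.7 on day 0 to 33.4 to 40.7 in iPSCs. Without VC, H2-T23 fell by 2.31 ± 0.14 (log2, SE; adjusted p = 1.02e-05), from 11.9 and 12.9 in CT to 1.85 and 1.55. The class I genes are near-identical and differ between mouse stocks, so reads may be split or lost between them.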

How the data were processed

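RNA was measured in 30 mouse libraries; groups and replicate numbers came from the sample titles. Per the labels' protocols, total RNA was sequenced by Novogene with reads of 150 bp. The submitters' processing notes list mm10 as the build, with StringTie 2.0, HISAT2 2.2.1 and fastp 0.20.1 as tools; the annotation and any use of strand are not given in the sources used here. The authors deposited FPKM values per gene in 3 tables of 10 libraries. FPKM removes depth and holds no read counts, and count models were left out.

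The tables were fitted separately with limma 3.58.1 (R 4.3.3; lmFit, contrasts.fit, eBayes with a trend) on log2(FPKM + 1), 1 coefficient per group, over genes reaching 1 FPKM in 2 or more libraries. Adjusted p-values are Benjamini-Hochberg, within each of 20 comparisons over all genes tested. Differences between arms were fitted over both time-course tables. Alternatives were a pseudocount of 0.1, no filter, TPM scaling, the replicate number as a block, and leaving out each library. The procedure was tested on simulated data. Coordinates and symbols are from GENCODE M21 and promoters from RefSeq GRCm38.p6; 99.5% of identifiers had a symbol.

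The members, gene lists and tests were chosen with earlier results of these data known. By the rule for named genes, every library value is given for the 2 members of each role class with the widest range of group means, other members by range and counts, and of each other list up to 3 called genes with the largest change; other genes named, among them H2-D1, H2-K1, Ifnk, Ifnar1, Irf2, Ikbke and Ifitm2, were chosen after their values were seen. One gene of the other pathway lists is not reported here.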

Additional observations from a re-analysis of the deposited data

Results flagged for a closer look

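The change from day 0 differed between the chemical and the 4-factor arm for 37 values, tested in limma as the difference itself (chemical minus 4-factor, log2) at an adjusted p under 0.05 and at least 2-fold. Table, mouse stock and reprogramming method cannot be told apart in them, and groups of 2 libraries are too small to test for a library that stands apart.

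From day 0 to day 4, the sensors differed by -1.58 for Ddx58, -1.66 for Ifih1 and -1.21 for Zbp1, and the factors by -2.41 for Irf7 and -1.62 for Irf9. Isg15 differed by -3.02 and Usp18 by -2.82. Ifit1 and Ifit3 differed by -3.15 and -1.71, while Ifit2 went the other way, at 1.67. Oas1a differed by -2.77, Oasl2 by -1.83, Mx2 by -1.48 and Bst2 by -3.49. In the Ifitm family, Ifitm1 and Ifitm2 were positive, at 2.61 and 1.76, and Ifitm3 was negative, at -1.31. The other interferon-stimulated members were all negative: Ifi27 -1.54, Ifi35 -2.41, Ifi44 -2.17, Xaf1 -3.47, Rtp4 -2.66, Parp9 -1.48, Parp14 -1.03 and Dtx3l -1.57. Of antigen processing, Psmb8 differed by -2.33, Psmb9 by -1.38 and B2m by -2.42.

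From day 0 to iPSCs, all 9 values were positive. They were 2.81 for Ifitm1, 1.60 for Oasl2, 1.53 for Ifit1, 1.44 for Oasl1, 1.33 for Rtp4, 1.17 for Irf7, 1.15 for Xaf1, 1.09 for Ifit3 and 1.01 for Ifitm3.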

How the results depend on the processing

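With a pseudocount of 0.1 in place of 1, the members called became 7 in place of 3 on day 4 and 8 in place of 5 from day 4 to day 7 of the 4-factor arm, 23 in place of 12 from day 4 to day 8 of the chemical arm, 2 in place of 1 without PD and 4 in place of 1 without VC. With TPM scaling they were 5 on day 4 of the 4-factor arm and 5 without VC; without a filter on low values, 0 without WS. TPM scaling moved the median of all genes by more than 0.1 (log2) in 8 of 20 comparisons, between -0.165 and 0.058, and the share of higher calls by more than 10 points in 7. Leaving out 1 library gave 3 to 5 on day 4 (5 without day 0 replicate 2 or day 4 replicate 1) and 3 to 6 from day 4 to day 7 of the 4-factor arm (3 without day 7 replicate 2). For the removals it gave 0 to 1 for CHIR, 0 to 3 for PD, 1 to 2 for VC and 0 to 2 for WS; the highest count of each came without CT replicate 1, and 0 came without CT replicate 2 or the removal of PD replicate 1 for PD, and without CT replicate 2 or either library for WS. The cause of these shifts was not tested. With the replicate block the counts equalled those without it, 14 on day 2 of the 4-factor arm for one. The difference between replicates 1 and 2, across genes, was compared by correlation between groups of the same experiment. Over 30 pairs of groups the correlation was -0.21 to 0.246. The 4 pairs over 0.1 were all in the 4-factor arm, and whether libraries of the same number share more than that number was not tested. Of 2094 values of single members under alternatives, 2020 kept their call, 74 lost it and 0 reversed. By member and comparison, 36 of 245 calls were lost under at least 1 alternative. A member that left the filter under an alternative gave no value there. FPKM gives no counts, so the depth behind a low value limits members near 0 most.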

Other observations

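The catalytic subunits of the constitutive proteasome, among them those that Psmb8 and Psmb9 replace in the immunoproteasome, were higher in iPSCs than at the last reprogramming day. From day 7 to iPSCs of the 4-factor arm, where 23.9% of all genes rose, all 3 (Psmb5, Psmb6 and Psmb7) rose, by 1.26, 1.12 and 1.47 (log2). From day 12 to iPSCs of the chemical arm, where 28.4% of all genes rose, these 3 rose by 1.83, 1.21 and 1.71. Their summed FPKM was 162 and 171 on day 7 and 321 and 508 in the 2 libraries of 4-factor iPSCs; genes under 1000 bp were 0.40 higher (median, log2) in the second of these, and the part of that difference in the rise was not tested. Over the same steps Psmb8 fell by 1.99 and by 1.74. Tap2, the partner of Tap1, and Erap1, which trims peptides, fell in iPSCs against day 0 in both arms, Tap2 by 1.67 and 1.69 and Erap1 by 1.94 and 1.60. Of the nucleic acid editing and turnover genes, Samhd1 and Eif2ak2 fell on day 4 of the chemical arm, by 2.02 and 1.61. Rnaseh2b, a subunit of the enzyme that removes RNA from DNA hybrids, rose in iPSCs of both arms, by 1.66 and 1.95.

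Of MHC class II genes, H2-Ab1 was above day 0 on day 8 of the chemical arm by 2.1, and Cd74 rose in chemical iPSCs by 1.60. Of the further interferon-stimulated genes listed, Phf11d had the largest rise in 4-factor iPSCs, 3.72, and Oas1g, a close relative of Oas1a, rose by 3.13 and 3.08 in the iPSCs of the 4-factor and the chemical arm. Laptm5, one of the 15 macrophage markers, was 42.0 and 37.2 FPKM in 4-factor iPSCs and 55.2 and 55.9 in chemical iPSCs; these values are most of that list's summed level there, 50.8 to 54.0 and 75.5 to 78.4.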
